A study of Mus musculus with 67 samples.

Results

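Every gene row whose symbol reads Hox, a cluster letter from a to d and a number was taken, which gave 38 of the 39179 gene rows measured in single cells cultured from mouse aorta. The GENCODE M21 annotation lists 39 such genes, and Hoxd4 was not analysed here. Of the 38 genes, 26 had a read in at least 1 cell, as did 20000 of all genes. The cells were 22 at passage 1 and 45 at passage 2, with 1 library per cell. Both passages were cultured smooth muscle cells from the descending aorta of male C57Bl6 mice aged 3 to 4 months, with no treatment named, and passage 2 was obtained by subculturing passage 1. The labels name no animal or culture, so the cells of a passage were treated as 1 sample, passage and library set cannot be told apart, and no p-value is given.

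Hox genes encode homeodomain transcription factors and lie in 4 clusters, where a gene's place in its cluster follows the body level at which it comes on in the embryo. Low-numbered paralogue groups mark the hindbrain and neck, middle groups the trunk, and the highest groups the lumbar, sacral and tail levels, limbs and genitalia. Adult mesenchymal cells, aortic smooth muscle cells among them, keep part of this pattern in culture, and retinoic acid, Polycomb and Trithorax proteins and TALE homeodomain cofactors set and read it.

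The cells held 817021 to 1561129 recovered reads at passage 1 and 548419 to 1509589 at passage 2, with medians of 8477.5 and 7257 genes per cell. At least 3 of 10 smooth muscle markers reached a normalized count of 10 in 19 of 22 and 45 of 45 cells, so most cells of both passages carried some of these markers. Des was at 0 in every passage 1 cell. Acta2 reached 10 in 20 of 22 and 45 of 45 cells, Tagln in 16 and 45, and Myh11 in 2 and 18. At least 3 of 10 endothelial markers reached 10 in 5 and 2 cells, and at least 3 of 10 fibroblast markers in 14 and 23. At least 3 of 8 pericyte markers did so in 14 and 27 cells. In the same measure no cell reached 3 macrophage, lymphocyte, mesothelial or Schwann markers. Cells with Mki67 or Top2a at 10, called cycling here, numbered 16 of 22 and 10 of 45.

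The Hox genes that were on in these cells were those of the anterior and middle Hoxa cluster and Hoxb7. A gene was called on where its normalized count reached 10 in at least 25% of the cells of a passage. By that measure Hoxa3, Hoxa4, Hoxa5, Hoxa7 and Hoxb7 were on at passage 1, which is 5 genes of 38, while 36% of all genes with a read were on. At passage 2 Hoxa3 and Hoxb7 were on, 2 genes, against 28.3% of all genes. The widest share of cells at 10 was 40.9%, for Hoxa3 and Hoxb7 at passage 1. A value of 100 was reached only by Hoxa2, Hoxa3 and Hoxa7 at passage 1 and by Hoxa3 and Hoxa7 at passage 2.

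The 12 genes with no read in any cell were Hoxa11, Hoxa13, Hoxb13, Hoxc10, Hoxc11, Hoxc12, Hoxc13, Hoxd3, Hoxd9, Hoxd10, Hoxd12 and Hoxd13. All but Hoxd3 and Hoxd9 belong to paralogue groups 10 to 13, the posterior end of the clusters. A count of 0 in 67 cells allows a share of cells with a read of up to about 4.48%, for counting error only. That limit is 3 divided by the number of cells, an approximation and not an exact interval. From groups 11 to 13 the files held 1 read in all, of Hoxd11 in a passage 1 cell. At this depth, therefore, the sacral and tail end of the code was not detectable beyond that read.

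Detection of the other genes overlapped between passages. Reads were found for 22 Hox genes at passage 1 and 24 at passage 2, of which 20 of 26 were shared, against 81.4% of all genes with a read. Hoxd8 and Hoxd11 had reads at passage 1 alone, 2 of 26 against 7.97% of all genes. Hoxa6, Hoxb1, Hoxb8 and Hoxd1 had reads at passage 2 alone, 4 of 26 against 10.6%, and Hoxb1, a hindbrain gene, came from passage 2 cell 26 only, at 35.8. Of the values above 0, 27% at passage 1 and 42.5% at passage 2 rested on 1 to 3 reads, so presence of a gene at such a level is weakly measured.

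**Figure D1:**
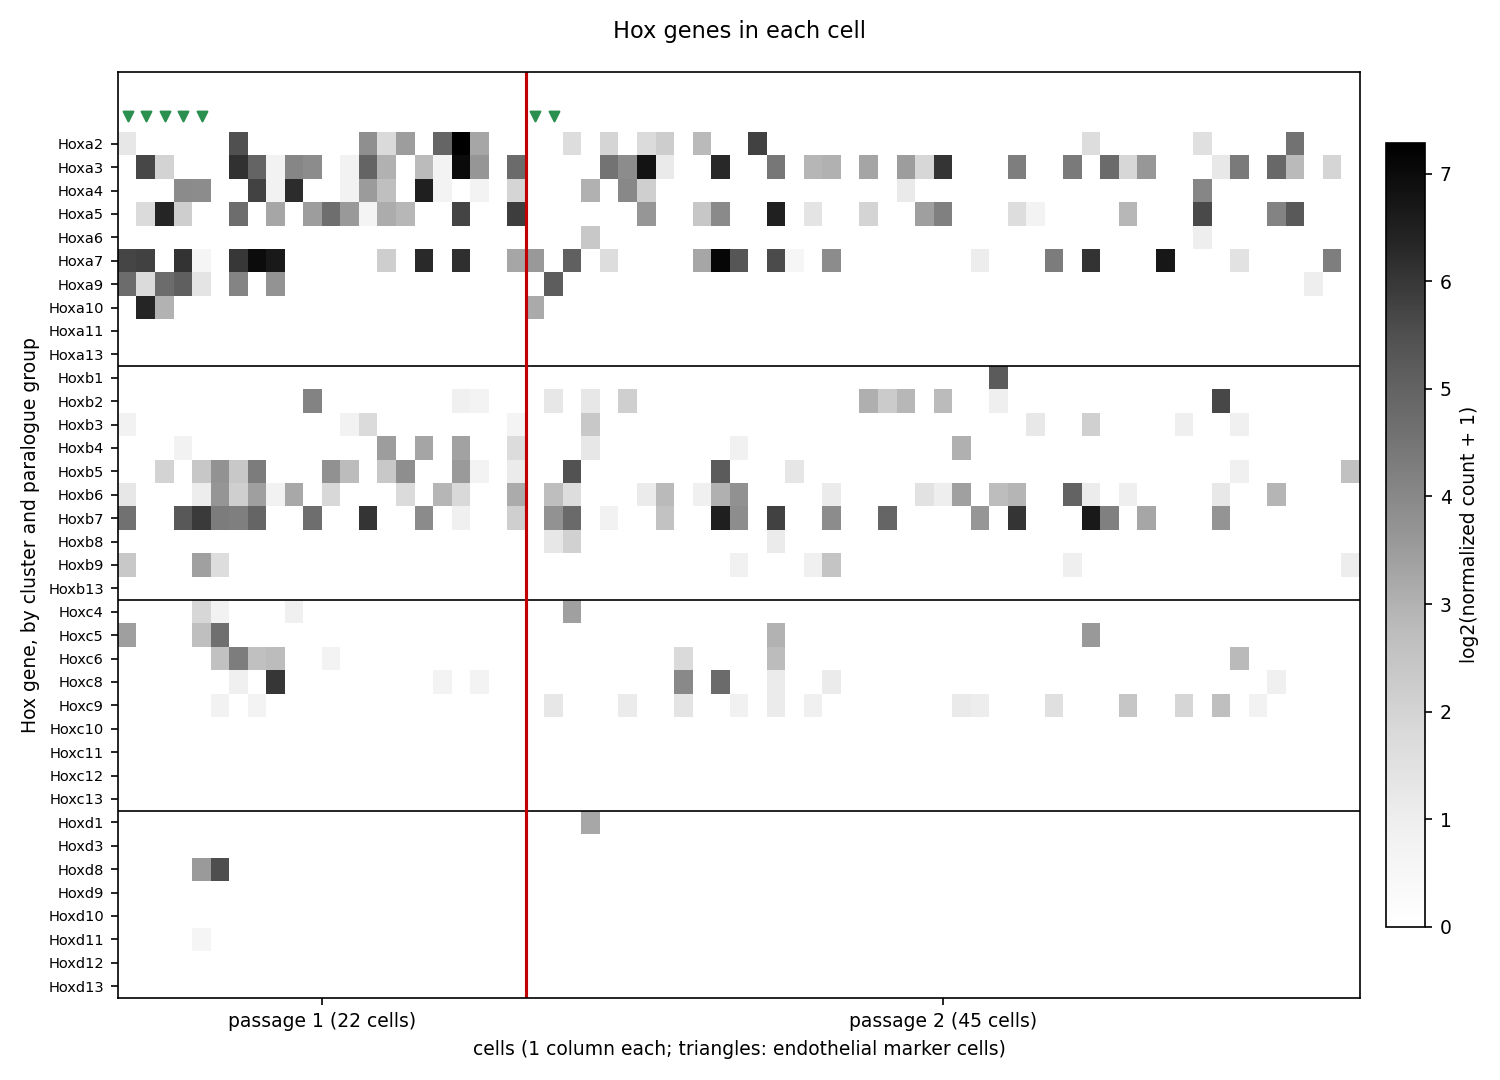
Heat map of log2(normalized count + 1) for 37 Hox genes (rows, by cluster and paralogue group) in the 22 passage 1 and 45 passage 2 cells (columns, with the 7 endothelial marker cells of both passages first within each passage, under triangles). Most signal lies in Hoxa and Hoxb rows, and single cells reach 63.7 for Hoxc8 and 45 for Hoxd8. The signal differs from cell to cell, and the rows of groups 11 to 13 are blank except for 1 read of Hoxd11.

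Per kilobase of exon, a scale on which levels of different genes can be set side by side, Hoxa7 had the highest mean level at passage 1 with 9.78 normalized counts per kilobase. Hoxb7 followed with 8.73, then Hoxa4 with 7.59, Hoxa5 with 7.05, Hoxa2 with 6.75 and Hoxa3 with 2.97. At passage 2 the highest level was that of Hoxb7 with 6.60, before Hoxa7 with 3.86, Hoxa5 with 3.09, Hoxa3 with 1.77, Hoxa2 with 1.23 and Hoxb6 with 1.14. The Hox7 pair held the 2 highest places in both passages, while Hoxa4 went from place 3 at passage 1 to place 8 at passage 2, with 0.590. With standard deviations over cells as large as the means, neighbours in either order do not differ beyond their spread. The order also depends on the length used, here all annotated exon bases of a gene. For Hoxa3 that was 6.01 kilobases, against 2.59 for its longest coding transcript, so its place would be higher on the latter.

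By cluster, the Hoxa genes held 70.6% of the summed per-kilobase Hox level at passage 1 and 51.4% at passage 2. The Hoxb share was 23.3% and 43.9%. Hoxc genes held 4.41% and 4.19%, and Hoxd genes 1.71% and 0.466%. In cells, a Hoxa gene reached 10 in 19 of 22 at passage 1 (86.4%, exact 95% binomial interval 65.1 to 97.1) and 25 of 45 at passage 2 (55.6%, 40 to 70.4). A Hoxb gene did so in 12 and 14 cells, a Hoxc gene in 3 and 3, and a Hoxd gene in 2 and 0. The Hoxa cluster was therefore the most widely detected in both passages, and its share of the summed level was lower at passage 2.

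By body level, groups 6 to 8, the thoracic groups, held 41.4% of the per-kilobase level at passage 1 and 56.5% at passage 2. Groups 4 and 5 held 31.9% and 21.4%, and groups 1 to 3 held 22.1% and 19.9%. Groups 9 and 10, of lower trunk levels, held 4.56% and 2.24%, and groups 11 to 13 held 0.0106% and 0. Leaving out the endothelial marker cells moved the share of groups 9 to 13 to 0.732% at passage 1 and 1.34% at passage 2, from 4.57% and 2.24%. The endothelial marker cells, 5 and 2 cells, therefore carried most of the passage 1 level of these groups.

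Hox genes took 3972 reads of 26400274 at passage 1 and 2387 of 41340350 at passage 2. The summed normalized count of all Hox genes per cell averaged 130 ± 105 (SD over 22 cells) and 52.7 ± 69.5 (SD over 45 cells), a log2 ratio of the means of -1.28 for passage 2 against passage 1. All ratios below subtract log2(mean + 1) of passage 1 from that of passage 2, so differences of low genes are understated. Each passage spanned cells from 0 to a sum of 432 and 387, so the ranges overlapped almost fully.

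Genes were kept for counts where the mean of either passage reached 10 and 25% or more of its cells had a read. This kept 6 Hox genes, Hoxa2, Hoxa3, Hoxa4, Hoxa5, Hoxa7 and Hoxb7, among 8682 genes. The 6 had lower means at passage 2, as had 54.7% of all genes kept. However, Hoxa2, Hoxa4 and Hoxa5 passed the filter through passage 1 alone and so had to be lower at passage 2. A log2 ratio of at most -1 was found for 4 of the 6 against 19.4% of all genes kept, and of at least 1 for 0 against 14.4%. Over all 26 Hox genes with a read, 18 had a lower and 8 a higher mean at passage 2. Of the 20000 genes with a read, 49.7% had a lower mean. The median ratio was -0.76 for the 26, against 0.0046 over the 20000. Of those 26, 9 had a ratio of at most -1, against 14% of all genes. No Hox gene had a ratio of 1 or more, and the largest was 0.84, for Hoxb1.

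Hoxa2, which patterns the hindbrain and the second pharyngeal arch, was at most 155 at passage 1 and 54.9 at passage 2, with a lowest value and a median of 0 in both. It reached 10 in 5 of 22 and 2 of 45 cells. Its means were 12 ± 33.9 and 2.19 ± 8.77, a log2 ratio of -2.02. Most cells of both passages lay at 0, and passage 1 cell 19 alone held 58.9% of the passage 1 sum. Without that cell the ratio was -0.95, and without passage 2 cell 13 it was -2.70. Without cycling cells its direction turned, to 0.75.

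Hoxa3, known for its part in the pharyngeal arch arteries, thymus and parathyroid, was the most often detected member, with a read in 15 of 22 and 22 of 45 cells. Its normalized count spanned 0 to 130 at passage 1 (median 4.46) and 0 to 109 at passage 2 (median 0). It reached 10 in 40.9% of cells (20.7 to 63.6) and 26.7% (14.6 to 41.9), intervals that overlap. The means of 17.8 ± 30.9 and 10.7 ± 21.9 gave a log2 ratio of -0.69, or 0.42 without cycling cells. Of Hoxa3 exon bases 27.1% also lie in another gene, 8.01% in a gene on the same strand. The largest single overlap, 503 bases, is with the antisense transcript Hoxaas2, and which gene the reads of shared bases came from cannot be told apart.

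Hoxa4, a gene of the neck region, had the largest ratio of the genes kept. Its counts spanned 0 to 89.1 at passage 1 (median 0.650) and 0 to 15.5 at passage 2 (median 0). It reached 10 in 6 of 22 and 2 of 45 cells, and the means were 12.1 ± 25.5 and 0.940 ± 3.34, a log2 ratio of -2.76. As a share of all reads, its reads were 15.5-fold higher at passage 1 (11.1 to 22.2, counting error only). The log2 ratio stayed between -3.03 and -2.28 when any single cell was left out, but its size moved with the measure. It was -1.01 with a pseudocount of 10 and -3.55 with a pseudocount of 0.1. Means of log2 values gave -1.38 and medians over cells -0.72. The passage 1 level lay in part of the cells, since 10 of 22 had no read. Other annotated genes share 16% of Hoxa4 exon bases and 15% of those of Hoxa2.

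Hoxa5, which is needed in the developing lung and neck skeleton, spanned 0 to 81.7 at passage 1 (median 2.93) and 0 to 88.4 at passage 2 (median 0). It reached 10 in 7 of 22 and 7 of 45 cells, with means of 13.2 ± 22.4 and 5.80 ± 15.9 and a log2 ratio of -1.07. The highest cells of both passages were alike, and the difference lay in how many cells had a read, 13 of 22 and 14 of 45. Without cycling cells its ratio was 0.01, without the endothelial marker cells -0.88, and with any single cell left out between -1.53 and -0.69, the last without passage 1 cell 13. No other annotated gene overlaps its exons.

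Hoxa7 and Hoxb7, of the thoracic group, were the pair with the highest levels. Hoxa7 spanned 0 to 124 at passage 1 (median 0.267) and 0 to 137 at passage 2 (median 0). It reached 10 in 8 of 22 and 10 of 45 cells, and its means were 28.1 ± 39.5 and 11.1 ± 27.7, a log2 ratio of -1.27. When present at passage 1 it was high, with a median of 62.2 over the 11 cells that had a read, against 18.1 over 15 cells at passage 2. Hoxaas3, an antisense transcript, shares bases with Hoxa7, of whose exons 20.4% lie in another gene.

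Hoxb7 spanned 0 to 65.8 at passage 1 (median 0.413) and 0 to 99.0 at passage 2 (median 0). It reached 10 in 9 of 22 cells (40.9%, 20.7 to 63.6) and 12 of 45 (26.7%, 14.6 to 41.9). The means of 13.5 ± 19.9 and 10.2 ± 22.9 gave a log2 ratio of -0.37, which was 0.02 without the endothelial marker cells. Hoxb7 was thus the member kept whose mean differed least between passages, and its direction turned with those 7 cells left out.

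**Figure D2:**
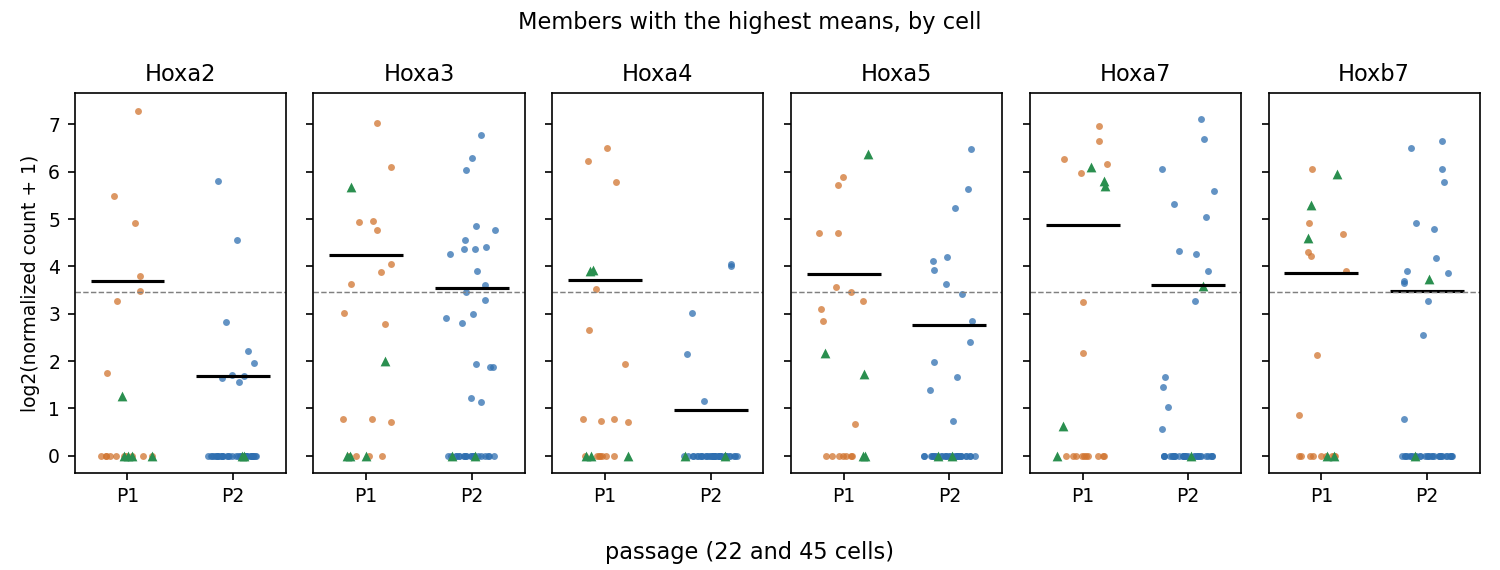
Strip plots of log2(normalized count + 1) per cell at passage 1 (22 cells) and passage 2 (45 cells) for Hoxa2, Hoxa3, Hoxa4, Hoxa5, Hoxa7 and Hoxb7, with bars at log2(mean + 1), triangles for endothelial marker cells and a dashed line at a count of 10. Many cells of both passages lie at 0, and for Hoxa4 the passage 2 cells reach 15.5 against 89.1 at passage 1.

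The genomic places of the leading members are these, on GRCm38 and from the GENCODE M21 annotation. The Hoxa genes lie on the minus strand of chromosome 6, with Hoxa2 at chr6:52162417-52164831, Hoxa3 at chr6:52169062-52213336, Hoxa4 at chr6:52189671-52191753, Hoxa5 at chr6:52201754-52204587, Hoxa7 at chr6:52214491-52221854, Hoxa9 at chr6:52223100-52231089 and Hoxa10 at chr6:52231197-52240854. Hoxb7 lies on the plus strand at chr11:96286623-96290162. Hoxa4 lies within the span of the long Hoxa3 gene, and so does Hoxa5. The Hoxa members from group 2 to group 10 are thus neighbours within a single stretch of chromosome 6.

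The sequences before the start sites of 3 of these neighbours are shown as examples. Hoxa2 reached 10 in 5 of 22 and 2 of 45 cells, and Hoxa5 in 7 and 7. Of those passage 1 cells, 5 for Hoxa2 and 6 for Hoxa5 were cycling, as were 16 of all 22. Hoxa9 reached 10 in 4 of 7 endothelial marker cells and 2 of 60 others. Each line gives the 250 bases before a RefSeq start on GRCm38.p6, 5′ to 3′ on the minus strand. The Hoxa2 and Hoxa5 stretches lie directly before their annotated genes, while that of Hoxa9 lies inside the Hoxa9 span given above. Capitals mark matches on either strand to TGATNNAT (a motif of paired Pbx and Hox proteins), TGACAG (Meis proteins), TATAAA (the TATA box) or CCAAT (the CCAAT box). The capital run of Hoxa2 near its end is a TGACAG match followed directly by a CCAAT match, with no shared base.
Hoxa2, chr6:52164832-52165081: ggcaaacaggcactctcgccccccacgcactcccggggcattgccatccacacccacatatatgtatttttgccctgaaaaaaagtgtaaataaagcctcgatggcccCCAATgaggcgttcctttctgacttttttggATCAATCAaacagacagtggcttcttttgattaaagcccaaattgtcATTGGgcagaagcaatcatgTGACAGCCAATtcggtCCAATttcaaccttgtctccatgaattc
Hoxa5, chr6:52204588-52204837: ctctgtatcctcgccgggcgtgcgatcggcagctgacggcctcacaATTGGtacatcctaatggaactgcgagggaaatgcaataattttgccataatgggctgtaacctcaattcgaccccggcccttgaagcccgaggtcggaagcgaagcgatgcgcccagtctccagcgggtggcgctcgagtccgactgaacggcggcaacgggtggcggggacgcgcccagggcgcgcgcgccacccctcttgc
Hoxa9, chr6:52227371-52227620: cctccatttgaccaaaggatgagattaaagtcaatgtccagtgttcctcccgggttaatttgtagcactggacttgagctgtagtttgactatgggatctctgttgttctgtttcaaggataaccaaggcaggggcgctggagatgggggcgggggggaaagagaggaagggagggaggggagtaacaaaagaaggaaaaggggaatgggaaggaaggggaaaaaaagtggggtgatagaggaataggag

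The Hoxa2 stretch held 1 TGATNNAT match, 1 TGACAG match and 4 CCAAT matches, with 6 CpG dinucleotides. The Hoxa5 stretch held 1 CCAAT match and 28 CpG, and the Hoxa9 stretch held none of the 4 motifs and 3 CpG. Of 32851 RefSeq stretches of that length, 7.68% held TGATNNAT, 15.9% TGACAG, 12.4% TATAAA and 33.8% CCAAT. The median CpG number was 6 over all stretches and 12.5 over the 24 stretches of Hox genes. Hoxa5 thus lay above both medians and the Hoxa9 stretch, inside its annotated gene, below both. The table had entries for 21 of the 38 genes, with Hoxa4 and Hoxb7 not among them, and a match describes letters, not binding.

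The other members were low or rested on few cells. Hoxa9 and Hoxb5 each reached 10 in 5 passage 1 cells, and in 1 and 2 passage 2 cells. Hoxb6, whose neighbour Hoxb7 was on, had a read in 12 of 22 and 18 of 45 cells but reached 10 in only 1 and 2. Hoxc8, a thoracic gene, reached 63.7 in passage 1 cell 4, which held 96.7% of the passage 1 sum. Its log2 ratio of -1.01 became 0.85 without that cell. Hoxa10 rested in the same way on passage 1 cell 12, with 92.2% of the sum and a ratio of -2.08 that was -0.17 without it.

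Hoxd8 had 82 reads at passage 1, in cells 1 and 16 at 45 and 10.7, and none at passage 2. Set against a floor of 3 reads over all of passage 2, its share of reads was 42.8-fold higher at passage 1. That value depends on the floor and rests on those 2 cells. With 0 reads at passage 2, the exact 95% lower limit of the read ratio was 34, for counting error of reads only. Hoxc9 and Hoxb2 were found in more cells at passage 2. Hoxc9 had a read in 2 of 22 and 13 of 45 cells and never reached 10, with a maximum of 5.29. Hoxb2, another hindbrain gene, had a read in 3 and 9 cells and reached 50.3 in passage 2 cell 38. Without that cell its ratio was -0.10 in place of 0.62, and without passage 1 cell 6, at 16.4, it was 1.38. The remaining members, Hoxa6, Hoxb3, Hoxb4, Hoxb8, Hoxb9, Hoxc4, Hoxd1 and Hoxd11, stayed under 10 in every cell, and Hoxc5 and Hoxc6 reached 10 in 1 passage 1 cell each and in 1 and 0 passage 2 cells.

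**Figure D3:**
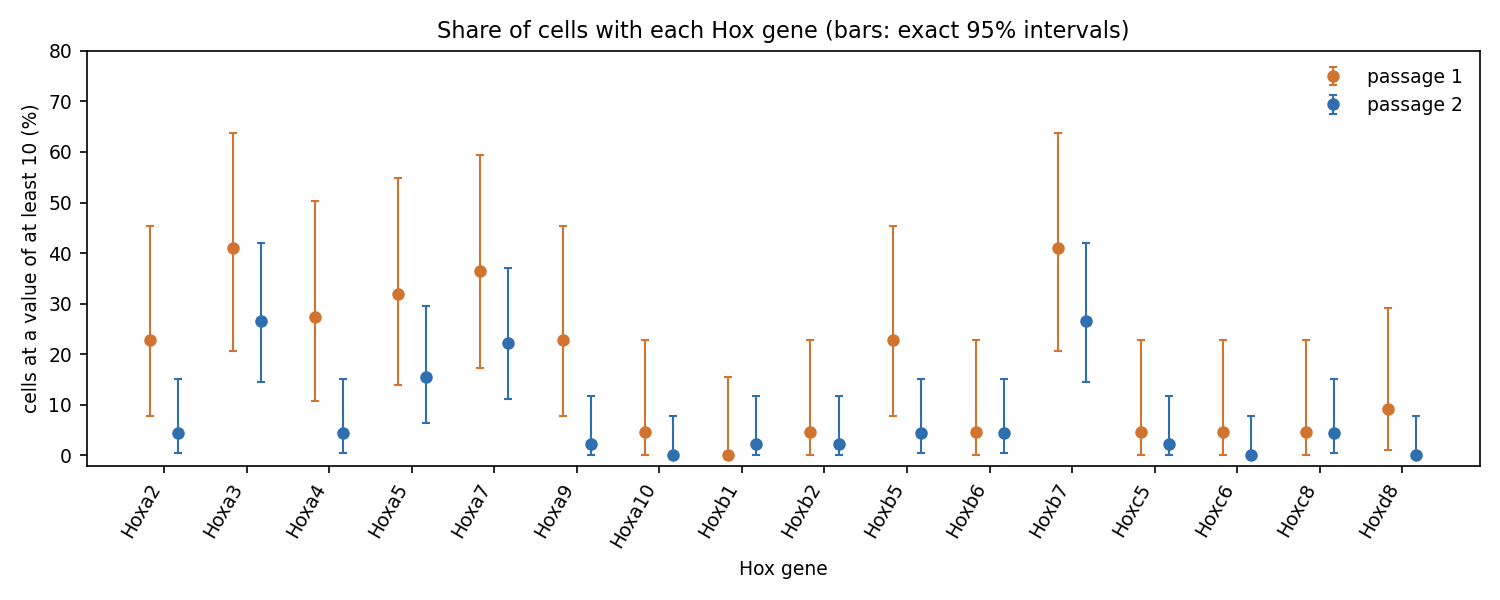
Percentage of cells in which each of 16 Hox genes had a normalized count of at least 10 at passage 1 (22 cells) and passage 2 (45 cells), with exact 95% binomial intervals as bars. Hoxa3 and Hoxb7 lead both passages with 40.9% and 26.7%, and the intervals of the passages overlap for each gene but are wide.

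At a count of 10, single cells did not show a common set of Hox genes. The number of Hox genes at 10 in a cell had a median of 3 (range 0 to 7) at passage 1 and of 1 (0 to 6) at passage 2. At least 1 Hox gene reached 10 in 20 of 22 cells (90.9%, 70.8 to 98.9) and 30 of 45 cells (66.7%, 51 to 80). These 20 passage 1 cells held 20 different combinations, so no combination occurred again. The 30 passage 2 cells held 21 combinations, of which 16 occurred in a single cell and the most frequent, Hoxa7 alone, in 4 cells. Low genes can be missed in a cell, and whether the cells share a set that was detected only in part was not tested.

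Counted with any read, the median was 6.5 Hox genes per cell at passage 1 and 3 at passage 2. After thinning every cell to 500000 reads it was 5 and 3, so the order of the passages was the same at equal depth. A single cell of each passage had no Hox read, and the earlier of these, passage 1 cell 21, had 4017 genes, the fewest of its passage. The richest cell, passage 1 cell 2, had 7 genes at 10, namely Hoxa2, Hoxa3, Hoxa5, Hoxa7, Hoxa9, Hoxb7 and Hoxc6.

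**Figure D4:**
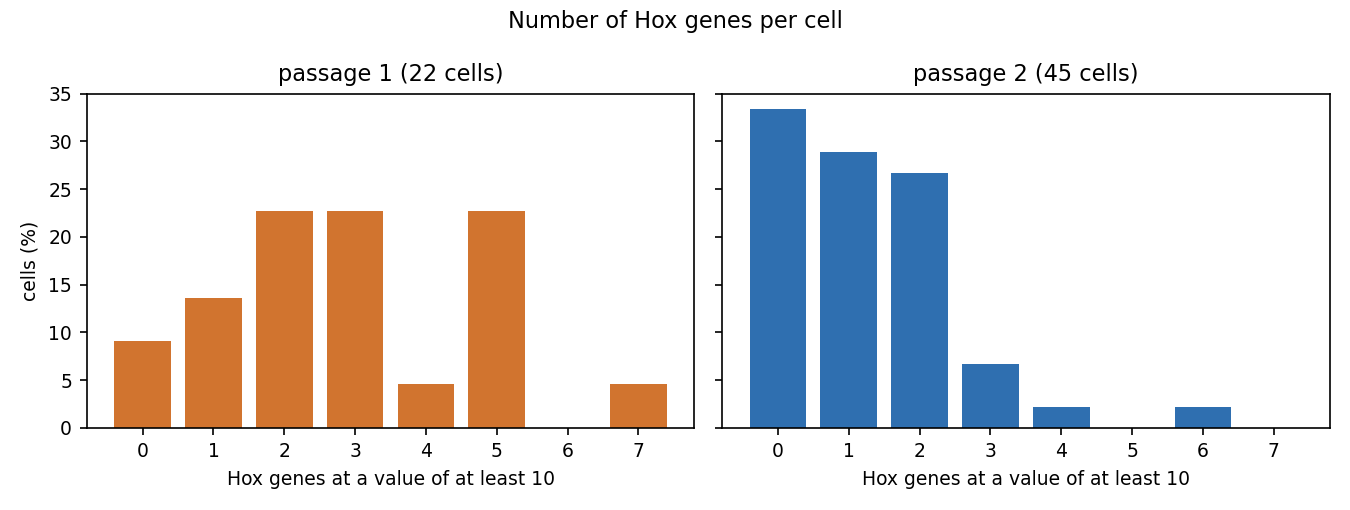
Percentage of cells (bars) by the number of Hox genes with a normalized count of at least 10, at passage 1 (22 cells) and passage 2 (45 cells). Passage 1 has its median at 3 and passage 2 at 1, and cells with no such gene make up 2 of 22 and 15 of 45.

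For some pairs of genes, taken as examples, the cells with both at 10 were these. Hoxa7 and Hoxb7, from different clusters but the same group, were both at 10 in 5 passage 1 cells, of 8 with Hoxa7 and 9 with Hoxb7, and in 6 passage 2 cells, of 10 and 12. Hoxa3 and Hoxa5 met in 4 passage 1 cells, of 9 and 7, and in 5 passage 2 cells, of 12 and 7. Hoxa4 and Hoxb7 met in 5 cells at passage 1, of 6 and 9, and in none at passage 2, where Hoxa4 reached 10 in 2 cells. Hoxa4 and Hoxa5, neighbours in the cluster, met in 0 passage 1 cells, of 6 and 7, and in 1 passage 2 cell. These are counts in 1 sample per passage. Whether a pair met more or less often than the shares of cells of both genes would give was not tested.

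Endothelial marker cells carried Hox genes of the same middle groups, and Hoxa9 in addition. Endothelial marker cells are the 7 cells with at least 3 of Pecam1, Cdh5, Kdr, Tek, Tie1, Vwf, Emcn, Cldn5, Erg and Egfl7 at 10, passage 1 cells 11, 12, 13, 14 and 16 and passage 2 cells 8 and 11. The choice used no Hox gene. Their summed endothelial level ranged from 513 to 7050, against 0 to 96.6 in the other 60 cells, and Cldn5 was at 0 in every cell. In each of the 7, at least 3 smooth muscle markers also reached 10, and whether a capture site held more than 1 cell was not tested.

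Hoxa9, known in endothelial cells as a regulator of adhesion genes, was at 26, 2.32, 25.7, 33.2 and 1.60 in passage 1 endothelial marker cells 11, 12, 13, 14 and 16. It was at 0 and 34.3 in passage 2 cells 8 and 11. Of the 60 other cells 57 had no Hoxa9 read, and the rest were passage 1 cells 2 and 4 at 16 and 12.2 and passage 2 cell 43 at 0.980. So Hoxa9 had a read in 6 of 7 endothelial marker cells and 3 of 60 others, and reached 10 in 4 of 7 (57.1%, 18.4 to 90.1) and 2 of 60 (3.33%, 0.406 to 11.5). Passage 1 cells 2 and 4 had no endothelial marker at 10, so Hoxa9 was not limited to the endothelial marker cells.

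Within passage 1 the Hoxa9 means were 17.8 ± 14.7 (SD, 5 cells) and 1.65 ± 4.72 (17 cells), a log2 ratio of 2.82, with the endothelial marker cell higher in 95.3% of cell pairs. The ratio was 3.41 without passage 1 cell 2 and 2.14 with at least 5 markers required. A split at least as sharp, 4 or more of the 7 and at most 2 of the 60 cells at 10, was found for 48 genes, 0.24% of those with a read. Among these 48 were Pecam1, Cdh5, Tek, Vwf, Emcn and Egfl7, 6 of the 10 markers that chose the cells. Hoxa9 was singled out after its values were seen, and the cells of a passage are not replicates. Between passages Hoxa9 averaged 5.31 ± 10.3 and 0.784 ± 5.11, a log2 ratio of -1.82 that was -1.38 without the endothelial marker cells and -2.63 without passage 2 cell 11.

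Hoxa10, the neighbour of Hoxa9, was read in 3 cells, all of them endothelial marker cells, at 80.6, 6.80 and 8.01 in passage 1 cells 12 and 13 and passage 2 cell 8. Hoxa7 and Hoxb7 each reached 10 in 4 of the 7 cells, against 14 and 17 of the other 60. Each of the 7 had at least 1 Hox gene at 10, and the 5 passage 1 cells had a median of 3 (2 to 5). Cell 11 held Hoxa7, Hoxa9 and Hoxb7, cell 14 Hoxa4, Hoxa7, Hoxa9 and Hoxb7 among others, and cell 16 Hoxa4, Hoxb7 and Hoxd8. Cell 12 held Hoxa3, Hoxa7 and Hoxa10 and cell 13 Hoxa5 and Hoxa9, while the passage 2 cells held Hoxa7 (cell 8) and Hoxa9 with Hoxb7 (cell 11). No 2 of these 7 combinations were alike.

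Hoxa2 and Hoxb5 each reached 10 in none of the 7 endothelial marker cells (0 to 41%) and in 7 of the other 60 (11.7%, 4.82 to 22.6), intervals that overlap. For Hoxa2 the passage 1 means were 0.281 ± 0.628 and 15.4 ± 38.1, a log2 ratio of -3.68 that was -2.58 without passage 1 cell 19. Without cycling cells it was 0.77, but that set only cells 11 and 14 against cells 3, 5, 7 and 17. Of these cells only cell 11 had a Hoxa2 read, at 1.40. With all passage 1 cells the ratio was -1.19 for Hoxa4, -0.84 for Hoxa3, 0.51 for Hoxa5, 0.40 for Hoxa7 and 1.18 for Hoxb7. Of these, Hoxa3 became -3.58 without cell 12, Hoxa5 -2.40 without cell 13 and Hoxb7 0.54 without cell 16, so the size of each of these 3, and for Hoxa5 the direction, moved with a single endothelial marker cell.

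Of the 6 Hox genes kept by passage, 1 was higher by a log2 ratio of 1 in passage 1 endothelial marker cells (Hoxb7, against 17% of 8682 genes) and 2 were lower (Hoxa2 and Hoxa4, against 25.1%). With the filter applied to the cell groups compared, a choice made after seeing the data, 8 Hox genes were kept of 8604. Then 3 were higher (Hoxa9, Hoxa10 and Hoxb7, against 20.6%) and 2 lower (Hoxa2 and Hoxa4, against 23.6%). Hoxa9 and Hoxa10 passed that filter through the endothelial marker cells alone and so had to be higher there, and Hoxa2 and Hoxa4 passed it through the other cells alone and so had to be lower. Hoxa4 reached 10 in 2 of 5 endothelial marker cells and 4 of 17 others, and its ratio was -0.18 with means of log2 values and -0.64 without passage 1 cell 17. At 10, 8 of 17 Hox genes were found in both kinds of cell, against 66.6% of the 14623 genes at 10 in a cell. Hoxa10 was found in endothelial marker cells only, against 2.56% of genes. The 8 found only in the other cells, against 30.8% of genes, were Hoxa2, Hoxb1, Hoxb2, Hoxb5, Hoxb6, Hoxc5, Hoxc6 and Hoxc8, and with 7 cells against 60 a gene of few cells can be missed.

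**Figure D5:**
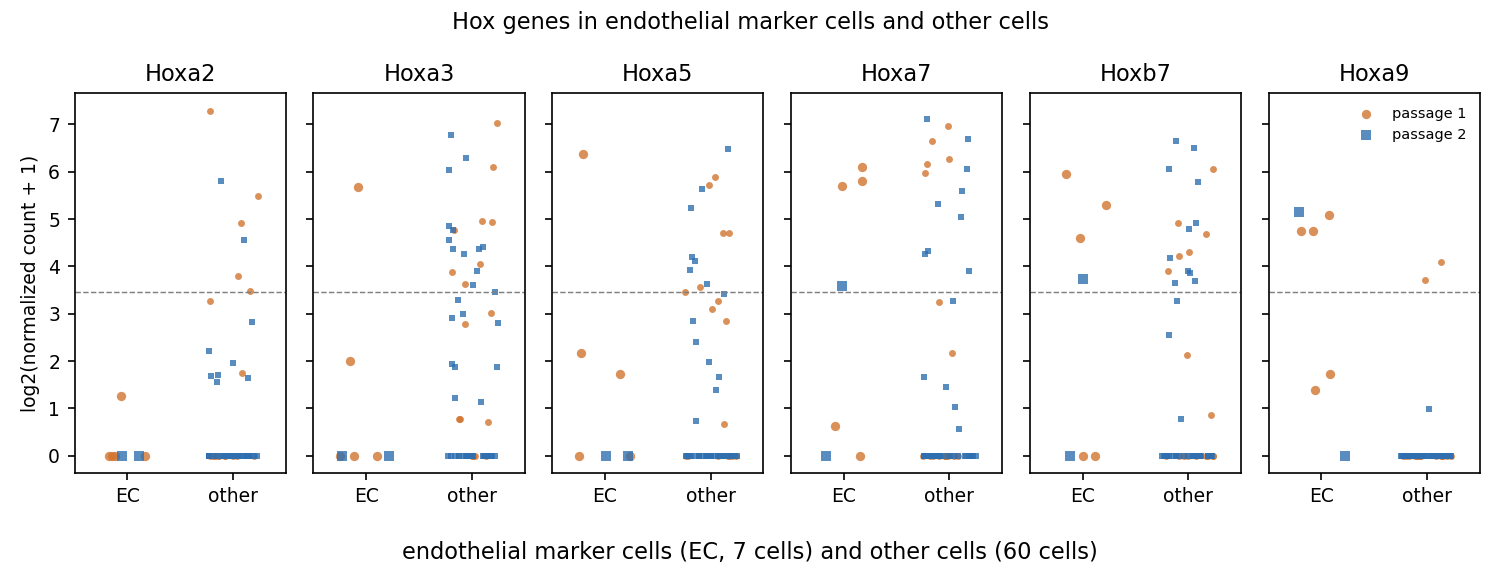
Strip plots of log2(normalized count + 1) in the 7 endothelial marker cells (EC) and the 60 other cells for Hoxa2, Hoxa3, Hoxa5, Hoxa7, Hoxb7 and Hoxa9, with circles for passage 1, squares for passage 2 and a dashed line at a count of 10. Hoxa9 lies above the line in 4 of 7 and 2 of 60 cells, and Hoxa2 in 0 of 7 and 7 of 60.

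Inside passage 1 the means of some Hox genes differed between cycling and other cells, in both directions. The summed Hox level was 118 ± 111 in cycling cells and 160 ± 89.2 in the others, spreads that overlap. The median number of Hox genes at 10 was 2.5 and 3. Hoxa4 averaged 38.5 ± 39 in the 6 cells that were not cycling, with 4 of 6 at 10, and 2.20 ± 4.18 in the 16 cycling cells, with 2 of 16 at 10. Hoxa7 averaged 53 ± 47.7 and 18.8 ± 32.9. In the other direction, Hoxa2 averaged 0.234 ± 0.573 in cells that were not cycling and 16.4 ± 39.1 in cycling cells, Hoxa3 8.56 ± 12.1 and 21.3 ± 35.3, and Hoxa5 4.74 ± 9.98 and 16.4 ± 25.1. The order of Hoxa2 and Hoxa4 was thus opposite between cycling and other cells.

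At passage 2 Hoxa4 had no read in the 10 cycling cells and averaged 1.21 ± 3.76 in the other 35. In cycling and other passage 2 cells, Hoxa7 averaged 6.77 ± 14.9 and 12.3 ± 30.5. Hoxa2 averaged 6.09 ± 17.3 and 1.08 ± 3.87, and Hoxa5 9.34 ± 27.8 and 4.79 ± 10.8. These genes kept the passage 1 order, but that of Hoxa3 turned, with 6.66 ± 10.9 and 11.8 ± 24.2. Between the cells that were not cycling, 6 and 35, the log2 ratio of passage 2 against passage 1 was -4.16 for Hoxa4, -2.02 for Hoxa7, -2.44 for Hoxa9 and -0.71 for Hoxb7, but 0.75 for Hoxa2, 0.42 for Hoxa3 and 0.01 for Hoxa5. The lower means of Hoxa4 and Hoxa7 at passage 2 therefore held among cells that were not cycling, and those of Hoxa2, Hoxa3 and Hoxa5 did not. The summed Hox level had a ratio of -1.56 in those cells. Of the 6 passage 1 cells that were not cycling, 2 were endothelial marker cells, 11 and 14, which held all Hoxa9 reads of the 6, so the 2 splits of the cells are mixed.

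The TALE cofactors, homeodomain proteins that bind DNA with Hox proteins, had lower means at passage 2 in all 6 genes kept of 11 listed. Over all genes kept, 54.7% were lower. Of the 6, 3 were lower by at least 1, against 19.4% of all genes kept. The median log2 ratio was -1.22, against -0.11 over all genes kept. Meis1 averaged 148 ± 183 and 46.9 ± 124, a ratio of -1.64, and Pknox2 and Pknox1 had ratios of -1.83 and -1.47. Pknox1 and Pknox2 passed the filter through passage 1 alone and so had to be lower. Tgif1 had a ratio of -0.22. Without cycling cells the median was -0.62.

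Of 24 Polycomb genes, whose products keep silent Hox genes off, 16 were kept, with a median of -0.38. Of these 3 were higher and 13 lower, against 54.7% lower over all genes kept. Ezh2, the histone H3K27 methyltransferase, averaged 67 ± 72.0 and 23 ± 60.9, a ratio of -1.50. It was among 4 of 16 genes with a ratio of at most -1, as were Phc1 (-1.91) and Eed (-1.24), and Phc3 (1.93) was among 2 of 16 with a ratio of at least 1. Over all genes kept these shares were 19.4% and 14.4%, near those of the list. Phc1 reached 733 in a passage 1 cell, against a median of 0.283 over that passage. Cbx6 (-1.10), the last of the 4, passed the filter through passage 1 alone and so had to be lower, as did Kdm2b (-0.80). The most abundant were Rbbp7, at 412 ± 306 and 226 ± 176, Rbbp4, at 215 ± 137 and 166 ± 133, and Phc2, at 73.7 ± 76.8 and 68.7 ± 130.

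Of 11 genes of Trithorax complexes and H3K27 demethylases, which oppose that silencing, 10 were kept, with a median of -0.70. Of these 4 were higher and 6 lower, near the 54.7% lower over all genes kept. Kdm6b, an H3K27 demethylase, averaged 15.2 ± 27 and 116 ± 126, a ratio of 2.85, and reached 10 in 8 of 22 and 40 of 45 cells. A ratio of at most -1 was found for 5 of the 10, against 19.4% of all genes kept, among them Rbbp5 (-2.50), Men1 (-1.39), Dpy30 (-1.25) and Psip1 (-1.22). Of those 5, 3 passed the filter through passage 1 alone and so had to be lower, Rbbp5 and Men1 among them. Ash1l, a histone methyltransferase, had a ratio of 0.31.

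The retinoic acid list, 19 genes of which 7 were kept, had a median of -0.80. Its members kept were 2 higher and 5 lower, against 54.7% lower over all genes kept. Dhrs3, a retinaldehyde reductase, averaged 138 ± 228 and 401 ± 436, a ratio of 1.54. Rdh10 and Aldh1a2, enzymes of retinoic acid synthesis, had ratios of -2.18 and -1.39 and had to be lower, since they passed the filter through passage 1 alone, while Aldh1a1 had 0.41 and Nrip1, a corepressor of nuclear receptors, -0.03. Without cycling cells the median of the list was 0.71. The 3 Cdx genes, which act on Hox clusters in the embryo, had no read.

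Of the transcripts that lie within the Hox clusters 17 were matched and 6 had a read. Hoxaas3 averaged 14.8 ± 23 and 3.78 ± 10.7, a log2 ratio of -1.73, and Hoxaas2 13.6 ± 20.9 and 7.58 ± 14.6, a ratio of -0.76. Both passed the filter through passage 1 alone and so had to be lower. They lie against exons of Hox genes described above, Hoxa7 and Hoxa3. Hoxb3os averaged 4.60 ± 6.53 and 9.59 ± 22.6. Hotair, Hottip and Hoxa11os, from the posterior end of the clusters, had no read, as had the posterior Hox genes of groups 12 and 13.

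Among 44 other transcription factor genes linked to body position in mesenchyme, 7 were kept, with a median of 0.16. At passage 2, 4 were higher and 3 lower, against 54.7% lower over all genes kept. Prrx1 averaged 241 ± 202 and 139 ± 196 and Gata6 180 ± 117 and 147 ± 167. Foxc1 averaged 21.4 ± 36.8 and 76.9 ± 121, a ratio of 1.80, and Prrx2, which passed the filter through passage 1 alone, had a ratio of -2.45. These genes did not share a direction.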

How the data were processed

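Single cells were captured on a C1 system and libraries made with Nextera XT reagents, per the labels' protocols. The submitters' processing notes name BWA, SAMtools, HTSeq, DESeq and GRCm38, without versions. The deposited signal values are read counts per gene after division by the authors' DESeq size factor of each cell. Strand and multi-mapping settings were not given in the sources used here. Dividing each cell's values by their smallest step gave whole reads for 100% of 509576 values, within 0.001. No count test was run, since each passage is 1 sample. No doublet caller was run.

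Gene IDs were matched to GENCODE M21, which gave 37607 rows a symbol. The Hox genes and all lists were chosen with earlier results of these data known. Cells are numbered in accession order. Fully described were members that reached 10 in at least 25% of a passage's cells or 100 in a cell, and members at 10 in an endothelial marker cell, and from related lists the 3 most abundant and up to 4 kept members with a ratio beyond 1. Ratios used means over cells and a pseudocount of 1. Levels were compared between genes per kilobase of exon. Intervals are exact Clopper-Pearson or exact Poisson 95% intervals and cover counting error only. Promoter letters come from RefSeq (GRCm38.p6). Alternatives covered the pseudocount, scaling, thinning, filters, the level called on, the cells used and each cell left out. Values were computed in R 4.3.3 with edgeR 4.0.16 (TMM factors only) and in Python 3.11.15 with matplotlib 3.10.9, scipy 1.17.1, pandas 2.3.3 and numpy 2.4.6, with scripts tested on simulated data. Some single-gene results are not reported here.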

Additional observations from a re-analysis of the deposited data

How the results depend on the processing

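No paired analysis was possible because the labels carry no replicate numbers, cells are numbered in accession order only, and no test was made. Of the alternative values of the main results other than leaving out 1 cell, 136 stayed within 1.5-fold and 35 moved further. With a pseudocount of 10, 1 kept Hox gene was called lower at passage 2 in place of 4, none higher and 1 lower (in place of 1 and 2) in endothelial marker cells, the Hoxa9 ratio there was 1.25 and the noncoding median -0.64. With thinned cells 1 gene was on at passage 2. With no filter 9 Hox genes were called lower, and the retinoic acid and noncoding medians were -0.070 and -0.38. Counting any read, 9 and 6 genes were on and the medians per cell were 6.5 and 3, while a value of 100 gave 0 and 0 genes on, medians of 0 and 0, and 9.09% and 6.67% of cells with a gene, and requiring 50% of cells gave 0 and 0 on. Means of log2 values called 2 genes higher in endothelial marker cells. With medians over cells 2 genes were called lower at passage 2 and the summed ratio was -1.93. Without cycling cells 2 genes were called lower, and the passage ratios of Hoxa2, Hoxa5 and Hoxc8 turned to 0.75, 0.011 and 1.16. The endothelial ratio of Hoxa9 was then 4.93 and that of Hoxa2 turned to 0.77. Both compared only passage 1 cells 11 and 14 with cells 3, 5, 7 and 17, and that of Hoxa2 rested on 1.40 in cell 11. The TALE, retinoic acid, noncoding and mesenchymal medians without cycling cells were -0.62, 0.71, -0.52 and -0.51. At least 5 markers gave Hoxa9 2.14 and turned Hoxb7 to -0.82. Groups 9 to 13 held 7.79% at passage 1 with no length correction, and 0.732% and 1.34% without the endothelial marker cells. The group filter called 3 genes higher. Leaving out 1 cell at a time gave 2 to 4 called lower at passage 2 (2 without passage 1 cell 19), 0 to 1 higher (0 without passage 1 cell 14 or 16) and 1 to 2 lower in endothelial marker cells (1 without passage 1 cell 3, 5, 11, 13, 17 or 19), a Hoxa9 ratio there of 2.49 to 3.41, and Hoxc8 from -1.51 to 0.85 (0.85 without passage 1 cell 4). The cause of these shifts was not tested. Depth limits the members of 1 to 3 reads most.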
